A study of Mus musculus with 24 samples.

Results

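The genes described here are 32 cell cycle and DNA replication genes, chosen by name and read across mouse cerebellum at postnatal day 28. They comprise 13 replication genes (Mcm2, Mcm3, Mcm4, Mcm5, Mcm6, Mcm7, Mcm10, Cdc6, Cdc45, Gins1, Pcna, Rrm2 and Tyms). They also comprise 5 G1 and S phase genes (Ccnd1, Ccne1, Ccne2, Ccna2 and E2f1) and 14 genes of mitosis and its preparation (Cdk1, Ccnb1, Ccnb2, Cdc20, Aurka, Aurkb, Bub1, Bub1b, Plk1, Birc5, Kif11, Ttk, Mki67 and Top2a). All 32 had a named probe, and 29 of them had a probe well above background on both arrays of at least 1 group and were tested, among 16935 genes tested in all. For each gene the brightest such probe was read. A level below is the log2 of the probe's processed intensity minus the 75th percentile of its array, so levels are compared between arrays and never between genes.

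The study asked what loss of Derlin-1 or Derlin-2, both membrane proteins of endoplasmic-reticulum-associated degradation, does to cerebellar RNA, and whether the chemical chaperone 4-phenylbutyrate (4PBA) changes that. It holds 24 single-colour Agilent arrays in 12 groups of 2, each array made from 150 ng of total RNA of C57BL/6 cerebellum. Knockout mice carried Cre recombinase under the nestin promoter, which acts in neural progenitors and hence across the central nervous system, together with floxed Derl1 or floxed Derl2. Their controls were Derlin-1 flox/flox or Derlin-2 flox/flox mice, and the labels give them no Cre. The numbered Derlin-1 series has control and knockout groups that received water vehicle or 200 mg/kg 4PBA, injected intraperitoneally once daily from day 14 to day 28. The Derlin-2 groups repeat that layout: control and knockout, with vehicle or the same 4PBA course. A second Derlin-1 series, whose arrays carry letters, has control and knockout groups with 4PBA and control and knockout groups whose labels name no injection, called untreated here. Each of the 3 sets of 8 arrays lay on its own slide. The labels do not say whether the 2 arrays of a group came from separate animals, so the p-values measure the spread between these samples.

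A dividing cell first licenses its replication origins, when Cdc6 helps to load the Mcm2 to Mcm7 helicase on chromatin, and then fires them with Cdc45, the GINS complex that contains Gins1, and Mcm10. Cyclin D1 and cyclin E release E2F factors such as E2f1 at the entry into S phase, while Cdk1 with the B cyclins, the Aurora and Polo kinases and the spindle checkpoint kinases Bub1 and Bub1b run mitosis. In the mouse cerebellum the great wave of division is that of granule neuron progenitors in the external granular layer, which ends in the third postnatal week, so that at this age glial precursors are among the few cells that still divide. In whole tissue, fewer cells of a type and less RNA per cell cannot be told apart.

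Replication and mitosis genes carry known control letters ahead of their starts: E2F sites in many replication genes, and CCAAT boxes with the cell cycle homology region (CHR) in many mitosis genes. RefSeq promoter windows (GRCm38.p6, 250 bases before to 50 after a start, 300 in all) were given for 26 of the 32 members, in 27 windows. Each window was searched on both strands for E2F letters (TTTCCCGC, TTTGGCGC, TTTGCCGC or TTTCGCGC), for CHR letters (TTTGAA) and for CCAAT. The 250 bases before the start are printed 5′ to 3′ for 4 members, with matches in capitals: Cdc6 and Mcm10 because each was called changed in a knockout, and Mki67 and Top2a because they stand for the mitosis genes whose levels moved together between arrays.
Cdc6: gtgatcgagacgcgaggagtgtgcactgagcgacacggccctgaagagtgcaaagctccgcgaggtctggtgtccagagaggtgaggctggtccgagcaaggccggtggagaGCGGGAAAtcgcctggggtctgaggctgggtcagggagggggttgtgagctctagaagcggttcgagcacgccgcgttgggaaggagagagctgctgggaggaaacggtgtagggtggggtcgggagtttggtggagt
Mcm10: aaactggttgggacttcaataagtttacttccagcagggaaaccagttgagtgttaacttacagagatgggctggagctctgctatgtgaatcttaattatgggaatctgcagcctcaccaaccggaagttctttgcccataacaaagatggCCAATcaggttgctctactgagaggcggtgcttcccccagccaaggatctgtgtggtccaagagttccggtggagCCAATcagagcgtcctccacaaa
Mki67: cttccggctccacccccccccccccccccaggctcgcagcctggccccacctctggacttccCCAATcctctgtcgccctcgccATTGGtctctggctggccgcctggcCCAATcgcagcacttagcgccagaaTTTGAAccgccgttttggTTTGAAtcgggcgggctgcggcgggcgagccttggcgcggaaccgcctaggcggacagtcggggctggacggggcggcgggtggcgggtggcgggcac
Top2a: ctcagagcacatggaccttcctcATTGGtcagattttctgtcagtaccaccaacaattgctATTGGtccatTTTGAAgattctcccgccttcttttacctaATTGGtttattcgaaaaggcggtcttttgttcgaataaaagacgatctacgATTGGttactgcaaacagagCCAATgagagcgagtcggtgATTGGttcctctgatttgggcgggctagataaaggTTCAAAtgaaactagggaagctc
The Cdc6 stretch lies at chr11:98907901-98908150 on the plus strand, that of Mcm10 at chr2:5012792-5013041, of Mki67 at chr7:135716380-135716629 and of Top2a at chr11:99024190-99024439, all but Cdc6 on the minus strand.

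The matches were counted by role. Counting back from the start, Cdc6 held 1 E2F match, whose first base lay at position -138, and neither of the other motifs. Mcm10 held CCAAT at -98 and -23, and again after the start, at position 32, beyond the printed stretch. Mki67 held CCAAT at -188, -166 and -141 and CHR letters at -116 and -98, and Top2a held 6 CCAAT and 2 CHR matches. No match overlapped another in the windows printed. E2F letters were found in 5 of the 12 replication windows (41.7%; Mcm3, Mcm5, Mcm6, Mcm7 and Cdc6) and in 1 of the 13 mitosis windows (Cdk1), against 2.26% of all 32851 windows. CHR letters were found in 10 of the 13 mitosis windows (76.9%) and 2 of the 12 replication windows (16.7%), against 17.9% of all windows. CCAAT was in 22 of the members' 27 windows (81.5%), with 10 of 12 for replication (83.3%) and 12 of 13 for mitosis (92.3%), against 37.4% of all. No difference between the roles was tested. A match is a run of letters and not a measured binding site, and no window was given for Mcm4, Gins1, Ccnd1, Ccne2, Ccna2 or Aurkb.

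The arrays' 75th percentile intensities ran from 881 to 1158, 57.3% to 68.4% of spots were well above background, and 52 to 637 spots an array were outliers. All 9 granule neuron and all 8 Purkinje cell markers were measured, as were all 12 microglial and all 8 endothelial markers. The targeted genes did not check every label. The Derl1 probe did not separate Derlin-1 knockouts from controls (0.92 and 0.95 in numbered vehicle controls against 0.91 and 0.72 in knockouts, and 1.23 and 0.85 in lettered untreated controls against 0.15 and 0.85 in knockouts), and the labels do not say which exons were removed. The brighter Derl2 probe was at 1.45 and 1.56 in Derlin-2 vehicle controls, at 1.73 and 0.51 in the arrays labelled vehicle knockout, and at 0.18 and 0.24 in 4PBA knockouts, so the array labelled Derlin-2 knockout vehicle 1 stood among the controls. Derl3, a stress-induced relative that was not targeted, ran from -0.62 to 0.38 in Derlin-1 knockouts and from -3.13 to -1.68 in Derlin-1 controls, except that the array labelled lettered Derlin-1 knockout 4PBA b was at -2.25. Calls, and the main counts of members, in the comparisons that use either array are given with and without it.

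Most of the genes were measurable in the day 28 cerebellum, and the mitosis genes were least often above background. Of the 29 tested members, 19 were well above background on all 24 arrays: 10 of the 13 replication genes, all 4 tested G1 and S genes (Ccnd1, Ccne1, Ccna2 and E2f1) and 5 of the 12 tested mitosis genes. Another 6 were above background on 20 to 23 arrays. Bub1 was above background on 17, Top2a on 18, Aurkb on 5 and Kif11, a spindle motor, on 3. The 3 members not tested were Cdk1, seen on 4 of 24 arrays, and Ccne2 and the checkpoint kinase Ttk, each seen on 3. Over all 16935 tested genes the share above background on every array was 84.2%.

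Cdk1, the kinase that drives entry into mitosis, was near the floor throughout, with a lowest level of -8.01, a median of -6.61 and a highest of -4.94. Cdk1 levels in the numbered series were -6.83 and -6.95 in vehicle controls, -8.01 and -6.21 in vehicle knockouts, -7.44 and -4.94 in 4PBA controls and -7.22 and -4.99 in 4PBA knockouts. Cdk1 in the lettered series stood at -5.39 and -6.36 in untreated controls, -7.14 and -6.36 in untreated knockouts, -5.94 and -6.30 in 4PBA controls and -5.53 and -6.61 in 4PBA knockouts. Cdk1 on the Derlin-2 slide was at -6.71 and -6.60 in vehicle controls, -6.95 and -6.96 in vehicle knockouts, -6.35 and -6.72 in 4PBA controls and -5.93 and -7.13 in 4PBA knockouts. The 4 arrays above background were numbered 4PBA control 2, numbered 4PBA knockout 2, lettered untreated control a and lettered 4PBA knockout a, so they belong to 4 different groups and both genotypes.

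**Figure D1:**
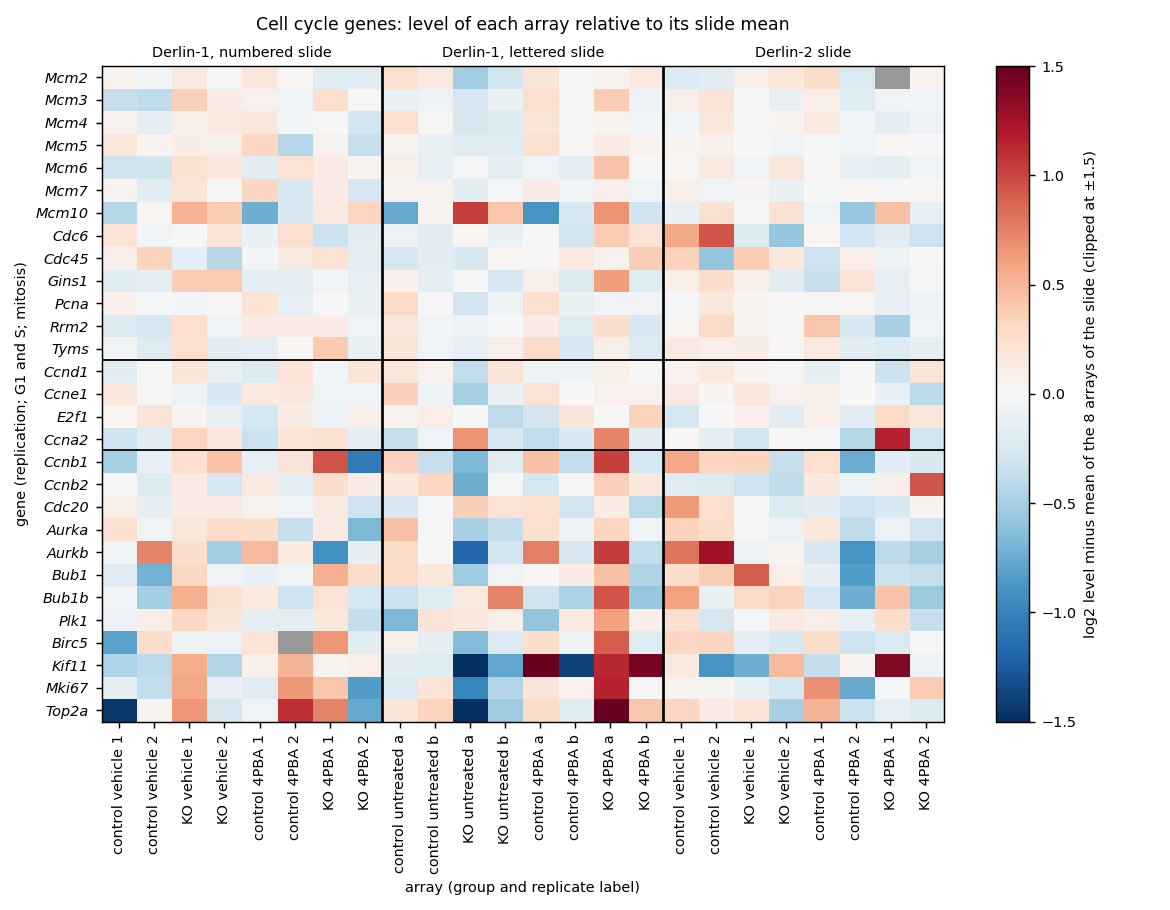
Level of the 29 tested genes on each of the 24 arrays, as the deviation from the mean of the 8 arrays of the same slide in log2 units (colours end at 1.5 either way, grey is a missing spot). The column of lettered 4PBA knockout a is high in 27 of 29 genes, and in the column of lettered untreated knockout a 16 of 29 genes have their lowest value on the slide.

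Of the cell cycle genes 1 was called in the Derlin-1 knockout without 4PBA, as the mean of both series. The series went opposite ways for many members, as described further on, so a median near 0 does not show that they did not change. Over both series, 14 of the 29 were higher and 15 lower, with a median log2 difference of -0.04 against -0.01 over all genes. Mcm10, an initiation factor of replication forks, was the only member called, at a log2 difference of 0.87 (SE 0.26, limma adjusted p = 0.0464 over all genes). That is 1 of 29, while 10.6% of all tested genes were called (1793 genes, of which 871 were higher). An unadjusted p under 0.05 was reached by 5 members (Mcm10, Mcm3 and Bub1b higher, Ccne1 and Mcm2 lower), against 26.6% of all genes. By role, 8 of 13 replication genes were higher (median 0.04), 1 of 4 G1 and S genes (median -0.12) and 5 of 12 mitosis genes (median -0.11). Centring each array on its median instead shifted all genes, to a median of -0.12. There 9 members were higher and 20 lower, with a median of -0.15, and 30.2% of the 1208 genes called were higher, against 48.6% of the 1793.

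**Figure D2:**
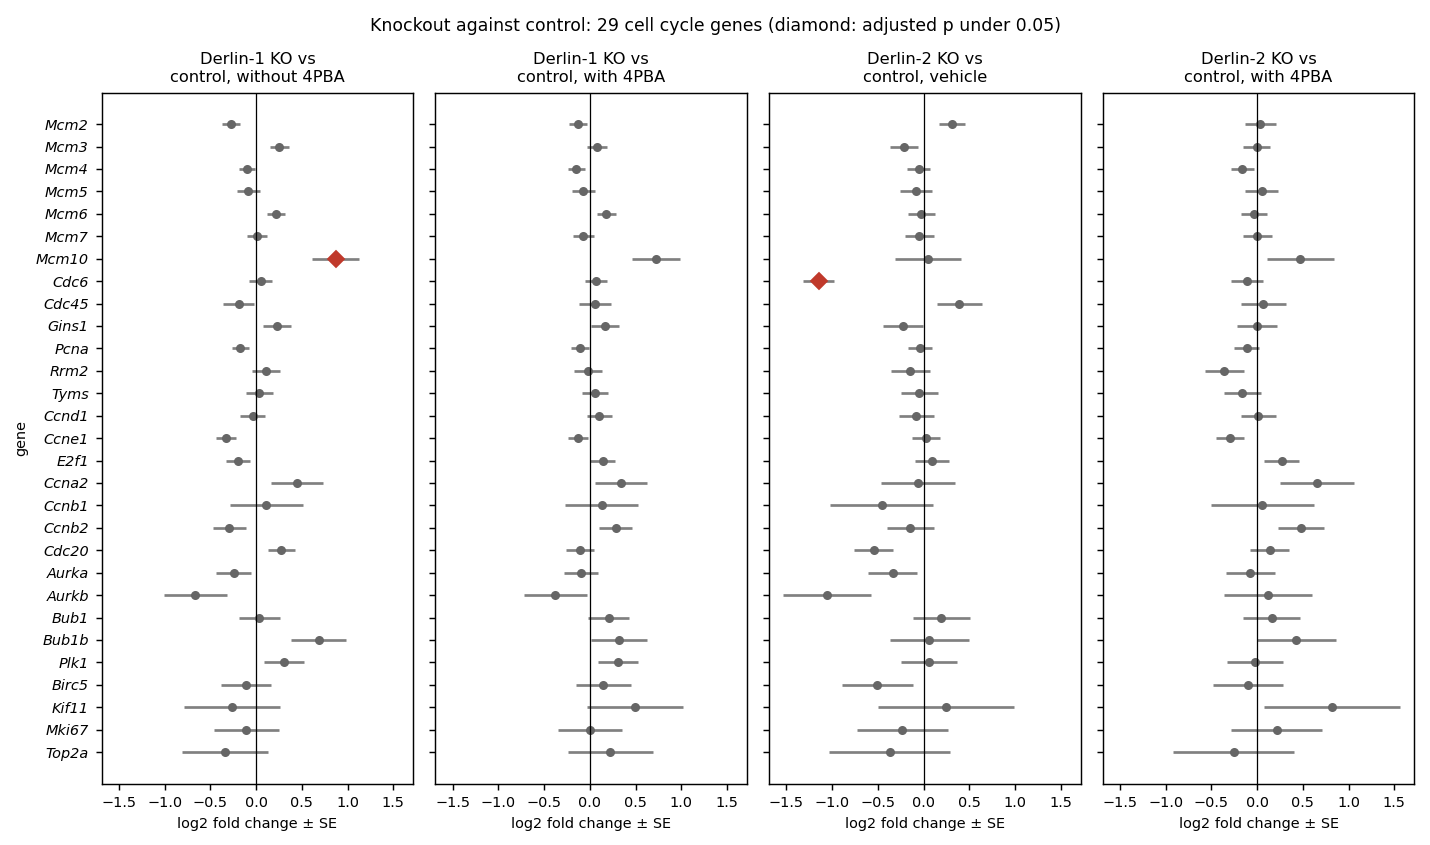
Log2 difference between knockout and control for each of the 29 tested genes in 4 comparisons (Derlin-1 without 4PBA, Derlin-1 with 4PBA, Derlin-2 with vehicle, Derlin-2 with 4PBA), with bars of 1 SE and diamonds for an adjusted p under 0.05. The diamonds are Mcm10 at 0.87 in Derlin-1 without 4PBA and Cdc6 at -1.15 in Derlin-2 with vehicle.

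Mcm10 was higher in the knockouts of both series. Mcm10 levels in the numbered series were -4.40 and -3.94 in vehicle controls, -3.45 and -3.59 in vehicle knockouts, -4.71 and -4.20 in 4PBA controls and -3.84 and -3.65 in 4PBA knockouts. Mcm10 in the lettered series stood at -4.05 and -3.26 in untreated controls, -2.26 and -2.88 in untreated knockouts, -4.18 and -3.52 in 4PBA controls and -2.62 and -3.60 in 4PBA knockouts. Mcm10 on the Derlin-2 slide was at -4.60 and -4.25 in vehicle controls, -4.51 and -4.24 in vehicle knockouts, -4.54 and -5.04 in 4PBA controls and -4.04 and -4.60 in 4PBA knockouts. Every Derlin-1 knockout array without 4PBA lay above every control array of its own series, while on the Derlin-2 slide the groups overlapped, and only the Derlin-2 4PBA control 2 array was not well above background. The difference was 0.66 in the numbered series (SE 0.36, adjusted p = 0.485) and 1.08 in the lettered series (SE 0.36, adjusted p = 0.103), so neither series alone passed. The test of the difference between the series did not pass (0.42, SE 0.52, adjusted p = 0.984). With 4PBA the Mcm10 difference was 0.72 (SE 0.26, adjusted p = 0.256). Without the array labelled lettered 4PBA knockout b it was 0.97 (SE 0.26, adjusted p = 0.0426), a call in a comparison where 6.2% of all genes were then called (1050 genes). Without that array and the array labelled Derlin-2 knockout vehicle 1 the adjusted p was 0.0545. In the Derlin-2 vehicle comparison Mcm10 differed by 0.05 (SE 0.36), and the Derlin-1 effect exceeded the Derlin-2 effect by 0.82 (SE 0.45, adjusted p = 0.439). The call in Derlin-1 without 4PBA lay close to the threshold: leaving out each of the 24 arrays in turn ended it in 16 cases, with adjusted p from 0.0265 to 0.188 and differences from 0.67 to 1.06. Of 15 other settings 11 ended it, among them quantile normalization (adjusted p = 0.0539) and median centring (0.0576).

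The Mcm2 to Mcm7 helicase subunits gave differences of both signs in the Derlin-1 knockout. Mcm2 levels in the numbered series were -1.79 and -1.89 in vehicle controls, -1.71 and -1.88 in vehicle knockouts, -1.67 and -1.82 in 4PBA controls and -2.01 and -2.02 in 4PBA knockouts. Mcm2 in the lettered series stood at -1.78 and -1.90 in untreated controls, -2.56 and -2.31 in untreated knockouts, -1.85 and -2.02 in 4PBA controls and -1.99 and -1.88 in 4PBA knockouts. Mcm2 on the Derlin-2 slide was at -1.86 and -1.81 in vehicle controls, -1.57 and -1.49 in vehicle knockouts, -1.39 and -1.87 in 4PBA controls and -1.60 on replicate 2 in 4PBA knockouts. Mcm2 overlapped between genotypes in the numbered vehicle groups but was lower in both numbered 4PBA knockouts and in both untreated lettered knockouts than in both of their controls, and 1 spot, on Derlin-2 4PBA knockout 1, was missing as an outlier. Its difference without 4PBA was -0.27 over both series (SE 0.10, adjusted p = 0.0928), 0.05 in the numbered series and -0.59 in the lettered series (SE 0.14, adjusted p = 0.0377). In the Derlin-2 vehicle comparison Mcm2 went the other way, at 0.31 (SE 0.14, adjusted p = 0.612), with both knockout arrays above both controls.

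Mcm3 and Mcm6 had higher values in the numbered vehicle knockouts. Mcm3 levels in the numbered series were -1.36 and -1.40 in vehicle controls, -0.67 and -0.91 in vehicle knockouts, -0.97 and -1.09 in 4PBA controls and -0.78 and -1.03 in 4PBA knockouts. Mcm3 in the lettered series stood at -1.24 and -1.20 in untreated controls, -1.38 and -1.22 in untreated knockouts, -0.88 and -1.14 in 4PBA controls and -0.74 and -1.21 in 4PBA knockouts. Mcm3 on the Derlin-2 slide was at -1.12 and -0.999 in vehicle controls, -1.22 and -1.32 in vehicle knockouts, -1.11 and -1.39 in 4PBA controls and -1.26 and -1.25 in 4PBA knockouts. For Mcm3 the numbered vehicle knockouts were above their controls and the lettered untreated arrays overlapped, giving 0.59 (adjusted p = 0.113) and -0.09, and 0.25 over both (SE 0.11, adjusted p = 0.143). Mcm6 levels in the numbered series were -0.08 and -0.08 in vehicle controls, 0.45 and 0.38 in vehicle knockouts, 0.06 and 0.44 in 4PBA controls and 0.35 and 0.26 in 4PBA knockouts. Mcm6 in the lettered series stood at 0.06 and -0.14 in untreated controls, -0.03 and -0.16 in untreated knockouts, -0.08 and -0.14 in 4PBA controls and 0.42 and -0.03 in 4PBA knockouts. Mcm6 on the Derlin-2 slide was at 0.02 and 0.13 in vehicle controls, -0.06 and 0.16 in vehicle knockouts, 0.01 and -0.14 in 4PBA controls and -0.15 and -0.05 in 4PBA knockouts. The Mcm6 pattern was the same in kind, with 0.49 in the numbered series (adjusted p = 0.162), -0.06 in the lettered series and 0.22 over both (SE 0.10, adjusted p = 0.195). The other subunits gave smaller differences over both series: -0.10 for Mcm4, -0.09 for Mcm5 and 0.01 for Mcm7.

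Pcna, the sliding clamp of the replication fork, which also serves DNA repair, kept within 2.39 to 2.99 over the 24 arrays, with a median of 2.62. Pcna levels in the numbered series were 2.59 and 2.50 in vehicle controls, 2.48 and 2.54 in vehicle knockouts, 2.72 and 2.39 in 4PBA controls and 2.52 and 2.41 in 4PBA knockouts. Pcna in the lettered series stood at 2.99 and 2.71 in untreated controls, 2.43 and 2.63 in untreated knockouts, 2.95 and 2.61 in 4PBA controls and 2.66 and 2.65 in 4PBA knockouts. Pcna on the Derlin-2 slide was at 2.61 and 2.79 in vehicle controls, 2.68 and 2.63 in vehicle knockouts, 2.65 and 2.66 in 4PBA controls and 2.52 and 2.56 in 4PBA knockouts. The groups overlapped in the numbered vehicle arrays, and in the lettered series both untreated knockouts were below both controls. The difference over both series was -0.17 (SE 0.09, adjusted p = 0.251). The nucleotide supply genes Rrm2 (a subunit of ribonucleotide reductase) and Tyms (thymidylate synthase) differed by 0.11 and 0.04, the GINS gene Gins1 by 0.23, and Cdc6 by 0.05 (SE 0.12, adjusted p = 0.844).

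Cdc45, which travels with the helicase, gave different answers on its probes. The brightest probe differed by -0.19 without 4PBA (SE 0.17, adjusted p = 0.521). A second, dimmer probe, not used in any count here, differed by 0.70 (SE 0.14, limma adjusted p = 0.0158 over all probes). Cdc45 levels on the second probe in the numbered series were -5.93 and -5.76 in vehicle controls, -4.78 and -5.17 in vehicle knockouts, -5.28 and -5.64 in 4PBA controls and -5.01 and -5.44 in 4PBA knockouts. Cdc45 in the lettered series stood at -4.97 and -4.73 in untreated controls, -4.44 and -4.20 in untreated knockouts, -4.85 and -4.57 in 4PBA controls and -4.39 and -4.70 in 4PBA knockouts. On that probe every knockout array without 4PBA was above the controls of its series, but neither numbered vehicle control was well above background. Which probe reports the gene was not tested.

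Among the G1 and S genes, Ccne1, which encodes cyclin E1, had the lowest adjusted p. Ccne1 levels in the numbered series were 1.06 and 0.87 in vehicle controls, 0.82 and 0.68 in vehicle knockouts, 1.04 and 1.05 in 4PBA controls and 0.83 and 0.84 in 4PBA knockouts. Ccne1 in the lettered series stood at 1.12 and 0.69 in untreated controls, 0.27 and 0.66 in untreated knockouts, 0.99 and 0.76 in 4PBA controls and 0.83 and 0.83 in 4PBA knockouts. Ccne1 on the Derlin-2 slide was at 1.001 and 0.92 in vehicle controls, 1.03 and 0.94 in vehicle knockouts, 0.98 and 0.87 in 4PBA controls and 0.78 and 0.48 in 4PBA knockouts. Both knockouts were below both controls in the numbered vehicle groups and in the lettered untreated groups. The difference was -0.33 over both series (SE 0.11, adjusted p = 0.0635), with -0.22 for the numbered and -0.44 for the lettered arrays (adjusted p = 0.107 for the latter). E2f1, a transcription factor of S phase entry, differed by -0.20 and Ccna2, cyclin A2, by 0.45, with adjusted p of 0.356 and 0.339.

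Ccnd1 encodes cyclin D1, which couples growth signals to the cycle, and ran from 0.94 to 1.70 over the 24 arrays. Ccnd1 levels in the numbered series were 1.34 and 1.47 in vehicle controls, 1.69 and 1.39 in vehicle knockouts, 1.30 and 1.70 in 4PBA controls and 1.47 and 1.70 in 4PBA knockouts. Ccnd1 in the lettered series stood at 1.61 and 1.51 in untreated controls, 1.06 and 1.63 in untreated knockouts, 1.37 and 1.36 in 4PBA controls and 1.53 and 1.44 in 4PBA knockouts. Ccnd1 on the Derlin-2 slide was at 1.32 and 1.41 in vehicle controls, 1.30 and 1.28 in vehicle knockouts, 1.13 and 1.24 in 4PBA controls and 0.94 and 1.46 in 4PBA knockouts. Its groups without 4PBA overlapped in both Derlin-1 series, while both lettered 4PBA knockouts lay above both 4PBA controls. The difference without 4PBA was -0.04 (SE 0.13, adjusted p = 0.891).

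Mki67, the proliferation marker Ki-67, was above background on all 24 arrays and differed in opposite directions in the Derlin-1 series. Mki67 levels in the numbered series were -3.51 and -3.75 in vehicle controls, -2.79 and -3.50 in vehicle knockouts, -3.56 and -2.73 in 4PBA controls and -2.96 and -4.22 in 4PBA knockouts. Mki67 in the lettered series stood at -3.57 and -3.16 in untreated controls, -4.34 and -3.80 in untreated knockouts, -3.17 and -3.29 in 4PBA controls and -2.21 and -3.35 in 4PBA knockouts. Mki67 on the Derlin-2 slide was at -3.71 and -3.71 in vehicle controls, -3.86 and -4.02 in vehicle knockouts, -3.08 and -4.52 in 4PBA controls and -3.79 and -3.38 in 4PBA knockouts. Both numbered vehicle knockouts lay above both controls, both lettered untreated knockouts lay below both controls, and in some groups the replicates lay over 1 log2 unit apart. The difference was 0.49 in the numbered series (SE 0.50, adjusted p = 0.765), -0.70 in the lettered series (SE 0.50, adjusted p = 0.434) and -0.11 over both (SE 0.35, adjusted p = 0.886). With 4PBA it was 0.00 (adjusted p = 0.999), and 0.29 (SE 0.37, adjusted p = 0.754) without the array labelled lettered 4PBA knockout b. Leaving out 1 array at a time moved the value over both series between -0.28 and 0.07.

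Top2a, the topoisomerase that untangles replicated DNA, varied widely. Top2a levels in the numbered series were -6.53 and -5.05 in vehicle controls, -4.43 and -5.33 in vehicle knockouts, -5.15 and -3.99 in 4PBA controls and -4.34 and -5.85 in 4PBA knockouts. Top2a in the lettered series stood at -4.65 and -4.50 in untreated controls, -6.96 and -5.37 in untreated knockouts, -4.56 and -5.02 in 4PBA controls and -3.20 and -4.44 in 4PBA knockouts. Top2a on the Derlin-2 slide was at -4.94 and -5.15 in vehicle controls, -5.06 and -5.76 in vehicle knockouts, -4.74 and -5.58 in 4PBA controls and -5.38 and -5.46 in 4PBA knockouts. It was not well above background on 6 arrays: numbered vehicle control 1, numbered 4PBA knockout 2, lettered untreated knockout a, Derlin-2 4PBA control 2 and both Derlin-2 4PBA knockouts. The numbered series gave a difference of 0.91 and the lettered series one of -1.59, with -0.34 over both (SE 0.47, adjusted p = 0.693). The series differed by -2.50 (SE 0.93, unadjusted p = 0.0176), which did not pass after adjustment (0.981). A second Top2a probe differed by -0.01 over both series.

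Bub1b, a kinase of the spindle assembly checkpoint, had higher values in knockouts in both series. Bub1b levels in the numbered series were -4.66 and -5.12 in vehicle controls, -4.06 and -4.38 in vehicle knockouts, -4.46 and -4.91 in 4PBA controls and -4.39 and -4.87 in 4PBA knockouts. Bub1b in the lettered series stood at -4.57 and -4.43 in untreated controls, -4.10 and -3.51 in untreated knockouts, -4.55 and -4.72 in 4PBA controls and -3.30 and -4.82 in 4PBA knockouts. Bub1b on the Derlin-2 slide was at -4.31 and -5.03 in vehicle controls, -4.63 and -4.58 in vehicle knockouts, -5.16 and -5.65 in 4PBA controls and -4.48 and -5.47 in 4PBA knockouts. Both knockouts were above both controls in the numbered vehicle and the lettered untreated groups, and the arrays not well above background were both Derlin-2 4PBA controls and Derlin-2 4PBA knockout 2. The series gave differences of 0.67 (numbered) and 0.69 (lettered), with 0.68 over both (SE 0.31, adjusted p = 0.169).

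Aurkb, the kinase of the chromosomal passenger complex, was at or near background almost everywhere. Aurkb levels in the numbered series were -5.69 and -4.90 in vehicle controls, -5.37 and -6.14 in vehicle knockouts, -5.14 and -5.48 in 4PBA controls and -6.53 and -5.76 in 4PBA knockouts. Aurkb in the lettered series stood at -6.67 and -6.94 in untreated controls, -8.13 and -7.23 in untreated knockouts, -6.20 and -7.19 in 4PBA controls and -5.90 and -7.32 in 4PBA knockouts. Aurkb on the Derlin-2 slide was at -4.77 and -4.32 in vehicle controls, -5.67 and -5.53 in vehicle knockouts, -5.82 and -6.47 in 4PBA controls and -5.98 and -6.07 in 4PBA knockouts. It was well above background on 5 arrays: numbered vehicle control 2, numbered vehicle knockout 1, both Derlin-2 vehicle controls and Derlin-2 vehicle knockout 2. The fitted differences of -0.66 in Derlin-1 without 4PBA (SE 0.34, adjusted p = 0.231) and -1.05 in the Derlin-2 vehicle comparison (SE 0.48, adjusted p = 0.621) rest largely on such dim values. The Derlin-2 vehicle controls were the only group with both arrays above background, so Aurkb entered the test through the high group of that comparison and its difference there is a description only. Its partner in that complex, Birc5 or survivin, was above background on 23 arrays and differed by -0.11. The remaining mitosis genes differed by 0.28 (Cdc20, the activator of the anaphase-promoting complex), 0.30 (Plk1), 0.11 (Ccnb1), 0.03 (Bub1), -0.25 (Aurka) and -0.29 (Ccnb2), with adjusted p from 0.256 to 0.941. Kif11 was above background on 0 of the 8 Derlin-1 arrays without 4PBA, so no difference is given for it there.

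**Figure D3:**
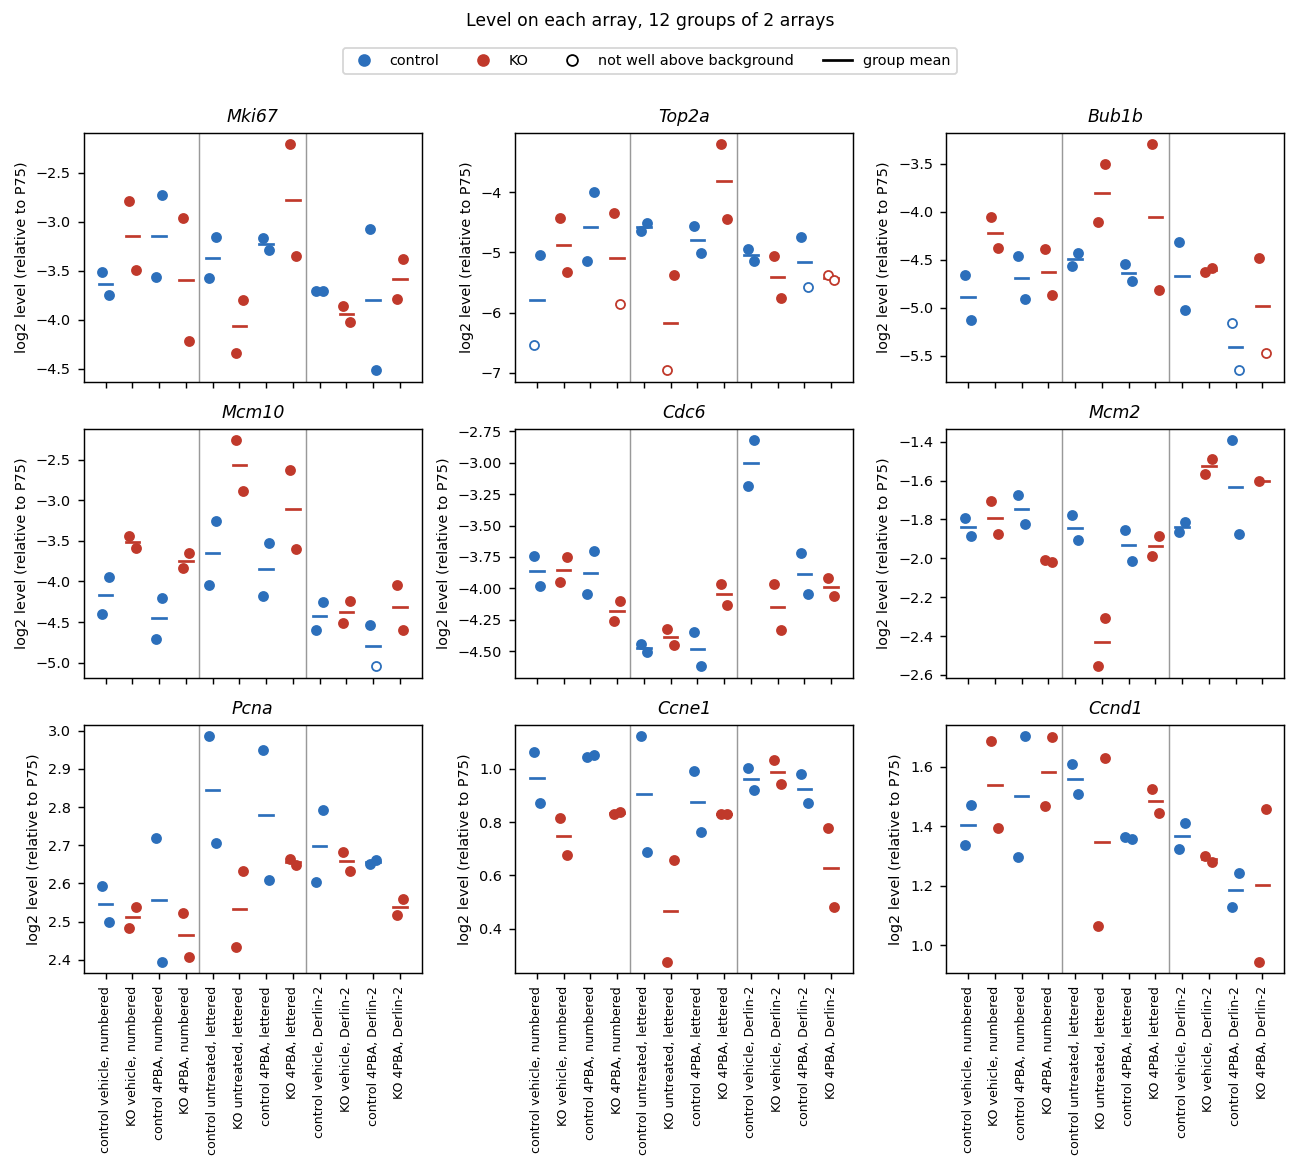
Levels (log2 intensity relative to the array's 75th percentile) of 9 genes on each array of the 12 groups, with open points for spots not well above background and a bar at each group mean. For Mcm10 the Derlin-1 knockout points without 4PBA lie between -3.59 and -2.26, above the controls of each series, and for Cdc6 the Derlin-2 vehicle controls at -3.19 and -2.82 lie above all other arrays.

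The numbered and the lettered Derlin-1 series gave opposite shifts for many of these genes. In the numbered series 23 of 29 members were higher in vehicle knockouts, with a median of 0.16. In the lettered series 7 of 29 were higher in untreated knockouts, with a median of -0.21, and 11 members had the same sign in both. Of the mitosis genes 11 of 12 were higher in the numbered series (median 0.36) and 3 of 12 in the lettered series (median -0.56). These counts hold Kif11 and Aurkb, whose values in these groups lie mostly at background. Without both, 10 of 10 mitosis genes were higher in the numbered series (median 0.37) and 3 of 10 in the lettered series (median -0.47), and of all members 22 of 27 and 7 of 27 (medians 0.16 and -0.16). Replication genes went from 10 of 13 higher (median 0.16) to 3 of 13 (median -0.09). Under normexp background correction the mitosis medians were 0.16 and -0.18, and the replication medians 0.13 and -0.10. Under the 3 other scalings tried, 22 or 23 members were higher in the numbered series and 5 or 6 in the lettered series. Leaving out each of the 8 arrays in turn kept 18 to 24 members higher in the numbered series and 7 to 9 in the lettered one. The mitosis median came down to 0.17 without numbered vehicle knockout 1 (9 of 12 higher) and was -0.27 without lettered untreated knockout a (3 of 12 higher). For the replication genes the numbered median ran from 0.055 (8 of 13 higher, without vehicle control 2) to 0.26 (without vehicle knockout 2). The lettered one ran from -0.198 (without untreated control b) to -0.012 (6 of 13 higher, without untreated control a). Both knockout arrays lay above both controls for 13 members and below for 2 in the numbered series, where 25.3% of all genes lay above and 22.1% below. The corresponding counts were 3 above and 15 below in the lettered series, against 20.4% and 25.6% of all genes. Those 15 include Kif11 and Aurkb, neither above background on any lettered untreated array, and without them 13 lay below. Mcm10, Cdc20 and Bub1b lay above in both series and Ccne1 below in both, while Mcm4, Bub1 and Mki67 lay above in the numbered and below in the lettered series. Over all genes the shares were 11.2% above in both, 12.7% below in both and 1.45% above in the numbered and below in the lettered series.

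By the test of the difference between the series, no member was called (limma, 0 of 29), where 0.0059% of all genes were called. An unadjusted p under 0.05 was reached by 6 members, against 3.66% of all genes. The members' median difference, lettered minus numbered, was -0.41, against -0.05 over all genes, of which 42.2% were higher. In the numbered series alone 0.0118% of all genes were called and no member, and in the lettered series alone 3.57% (604 genes) and 1 member, Mcm2. The series lay on separate slides, the lettered slide was scanned on another day, and the non-4PBA mice were given vehicle in one and have no injection named in the other. These differences cannot be told apart.

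**Figure D4:**
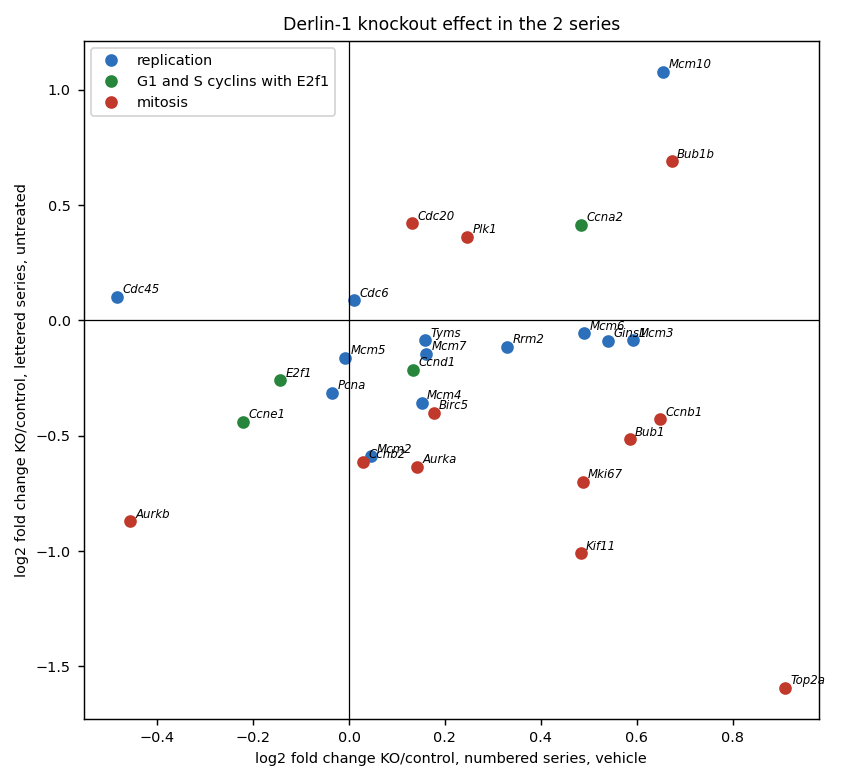
Log2 difference between Derlin-1 knockout and control without 4PBA in the numbered series (horizontal axis) and the lettered series (vertical axis), 1 point per gene. Most mitosis genes lie to the right of 0 and below 0, and Mcm10 lies at 0.66 and 1.08.

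With 4PBA the Derlin-1 knockout left the cell cycle genes without a call. In 4PBA-treated mice 19 members were higher and 10 lower in knockouts, with a median of 0.08 against -0.02 over all genes. Kif11 entered the test only through the lettered 4PBA knockouts, its high group, and counts as higher here and where knockout b is left out. Leaving out Kif11 and Aurkb, with every array kept, 18 were higher and 9 lower. No member was called (0 of 29), where 0.0472% of all genes were called. Mcm10 alone had an unadjusted p under 0.05, against 12.8% of all genes. Without the array labelled lettered 4PBA knockout b, 21 were higher and 8 lower, the median was 0.14, and Mcm10 was called, with 6.2% of all genes. There 4 members had an unadjusted p under 0.05, all higher: Mcm10, Mcm6 at 0.29, Gins1 at 0.37 and Bub1b at 0.70. The knockout effect with 4PBA minus that without was called for no member and for 0.0118% of all genes. For Mcm10 that difference was -0.14 (SE 0.37), and it turned to 0.10 (SE 0.35) without the array labelled lettered 4PBA knockout b, where 24 members were higher and 5 lower and none was called.

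No member was called for 4PBA in any of the 4 genotype groups. In Derlin-1 controls 18 members were higher and 11 lower with 4PBA (median 0.03; 0.0295% of all genes called). The series went opposite ways: leaving out Kif11 and Aurkb, 20 of 27 were higher in the numbered series (median 0.09) and 8 of 27 in the lettered series (median -0.05). The pooled split turned to 13 higher and 16 lower under quantile normalization and to 11 and 18 under median centring. No member was called (1 member at an unadjusted p under 0.05, Mcm3 at 0.28, against 2.07% of all genes). In Derlin-1 knockouts 21 were higher and 8 lower (median 0.09; 0.0354% of all genes called), and without Kif11 and Aurkb 19 were higher and 8 lower (median 0.04). Of those 27, 8 were higher in numbered knockouts (median -0.20) and 23 in lettered ones (median 0.29), again in opposite directions. Among the members at an unadjusted p under 0.05 there were Top2a at 1.07 (SE 0.47, adjusted p = 0.74) and Ccnb2 at 0.45. The Top2a difference was 1.38 (SE 0.51), not a call, without the array labelled lettered 4PBA knockout b. The series did not give like values: Top2a differed by -0.21 there in numbered and by 2.35 in lettered mice, where 1 of the 2 untreated knockouts was not above background. Mki67 differed by -0.45 in numbered and by 1.29 in lettered mice. With the array labelled lettered 4PBA knockout b left out, 27 members were higher and 2 lower in 4PBA-treated knockouts. The lettered 4PBA knockouts were then array a alone, which had the highest value of its slide for 15 of 29 members. Lettered untreated knockout a had the lowest for 16, and the part of these arrays in the split was not tested. The split also holds Kif11. Kif11 entered the test only through the lettered 4PBA knockouts, its high group, so its fitted difference is not given here. As a description only, its value in the lettered 4PBA knockouts was at least 1.56-fold that of the untreated ones.

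On the Derlin-2 slide 4PBA went with lower values in controls, more so on replicate 2. There 5 members were higher and 24 lower, with a median of -0.12, while over all genes the median was -0.05 and 36.4% were higher. The members' median deviation from the slide mean was 0.04 on 4PBA control 1 and -0.18 on 4PBA control 2. It was 0.10 and 0.14 on the vehicle controls. The array 4PBA control 2 had the lowest value of the slide for 13 of 29 members. No member was called, where 0.124% of all genes were called, and 4 had an unadjusted p under 0.05, against 5.62% of all genes. Cdc6 came first at -0.88 (SE 0.17, adjusted p = 0.0963), then Cdc20 at -0.68 and Bub1, which was at least 1.25-fold lower with 4PBA because both 4PBA arrays were not well above background. Bub1b was likewise at least 1.29-fold lower and Aurkb at least 1.47-fold lower. Aurkb, 1 of those 4, entered the test only through the vehicle controls, the high group of this comparison too, so its bound is a description only. Without it and Kif11, 4 members were higher and 23 lower. A bound of this kind sets the brighter group's mean against a mean over the other arrays. Each of those counts with its dimmest signal still well above background or the gene's own reading, whichever is higher. In Derlin-2 knockouts 12 members were higher and 17 lower (median -0.07, the same as over all genes), and under normexp 15 were higher and 14 lower. Under quantile normalization the split was 6 and 23 (median -0.11 against -0.05 over all genes), under median centring 5 and 24, and without the array labelled Derlin-2 knockout vehicle 1 it was 14 and 15 (median -0.07). None was called, where 0.154% of all genes were called and 10.3% had an unadjusted p under 0.05. Bub1 was at least 1.58-fold lower. That bound uses the array labelled Derlin-2 knockout vehicle 1, where Bub1 deviated from the slide mean by 0.91, against 0.10 on replicate 2. The difference of Ccnb2, cyclin B2, was 0.86, and 0.89 without the array labelled Derlin-2 knockout vehicle 1. An unadjusted p under 0.05 was reached by 3 members with that array (Ccnb2, Bub1 and Ccne1) and by 1 without it (Ccnb2). Median centring moved all genes here, to medians of -0.17 for 4PBA in controls and -0.27 in knockouts, and the members to -0.24 and -0.23. The 4PBA arrays of this slide had 489 to 637 outlier spots and 57.3% to 62.5% of spots above background, against 213 to 408 and 63.4% to 66.7% with vehicle. The part of these array differences was not tested.

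In the Derlin-2 knockout with vehicle 1 member fell, Cdc6, the factor that loads the helicase at origins. Cdc6 levels in the numbered series were -3.74 and -3.99 in vehicle controls, -3.95 and -3.75 in vehicle knockouts, -4.05 and -3.71 in 4PBA controls and -4.26 and -4.10 in 4PBA knockouts. Cdc6 in the lettered series stood at -4.44 and -4.51 in untreated controls, -4.32 and -4.45 in untreated knockouts, -4.35 and -4.62 in 4PBA controls and -3.97 and -4.13 in 4PBA knockouts. Cdc6 on the Derlin-2 slide was at -3.19 and -2.82 in vehicle controls, -3.97 and -4.33 in vehicle knockouts, -3.72 and -4.04 in 4PBA controls and -3.92 and -4.06 in 4PBA knockouts. Both Derlin-2 vehicle controls lay above all 22 other arrays, and the Derlin-2 vehicle knockouts lay within the range of the Derlin-1 arrays. The difference was -1.15 (SE 0.17, limma adjusted p = 0.0157), and 0.118% of all genes were called in that comparison (20 genes, 1 higher and 19 lower). Without the array labelled Derlin-2 knockout vehicle 1 it was -1.33 (SE 0.20, adjusted p = 0.0114), with 0.493% of all genes called. Leaving out either control vehicle 2 or knockout vehicle 2 ended the call, with adjusted p of 0.138 and 0.168. So did normexp background correction, where the difference was -0.64 (adjusted p = 0.128), the trend and robust variance model (adjusted p = 0.0562) and a fit of the Derlin-2 slide alone (adjusted p = 0.211). Under 4PBA the Derlin-2 difference was -0.11 (SE 0.17). The Derlin-1 effect minus the Derlin-2 effect was 1.20 for Cdc6 (SE 0.21, adjusted p = 0.0726) in a test that called 0.065% of all genes and no member. Without the array labelled Derlin-2 knockout vehicle 1 it was 1.38 (adjusted p = 0.0228), a call where 0.44% of all genes were called.

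The other members in the Derlin-2 knockout with vehicle did not pass the test. There were 9 higher and 20 lower, with a median of -0.06 against -0.01 over all genes. In all, 4 members had an unadjusted p under 0.05, against 7.91% of all genes. Besides Cdc6 these were Cdc20 at -0.55, Mcm2 at 0.31 and Aurkb at -1.05, the last of which entered the test only through its bright control group. Both knockout arrays were above both controls for 1 member (Mcm2) and below for 11 (10 without Aurkb), against 21.2% and 25.8% of all genes. Without the array labelled Derlin-2 knockout vehicle 1, 8 were higher and 21 lower, with a median of -0.11, and only Cdc6 and Cdc20 (2 members) had an unadjusted p under 0.05. With 4PBA 17 were higher and 12 lower (median 0.01 against -0.03), and under quantile normalization 12 were higher and 17 lower. None was called or had an unadjusted p under 0.05, against 0.136% and 4.82% of all genes.

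The mitosis genes tended to be high or low together from array to array, also between the 2 arrays of a group. Lettered 4PBA knockout a had the highest value of its slide for 15 of 29 members, 9 of the 12 mitosis genes among them, while 8.13% of all genes had their highest value there. It exceeded its replicate b in 25 of 29 members, and its mitosis genes lay a median of 0.93 above the slide mean. Lettered untreated knockout a was lowest for 16 of 29 members and 9 of 12 mitosis genes, at a median of -0.66 for mitosis, though 29.8% of all genes were also lowest there. Derlin-2 4PBA control 2 was lowest for 13 members and 8 of 12 mitosis genes (15.9% of all genes), and its replicate 1 was above it in 23 of 29 members. That array also had the smallest share of spots above background (57.3%). Some of these extreme values were not well above background. They include Aurkb, Bub1 and Bub1b on Derlin-2 4PBA control 2. They also include Aurkb, Kif11 and Top2a on lettered untreated knockout a and Aurkb on lettered 4PBA knockout a.

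This joint movement was described by taking, in each of the 12 groups, the difference between replicates. By the labels that difference holds no genotype or treatment effect. The genes were correlated over the 12 differences through the origin, without subtracting each gene's mean, so r here is an uncentred correlation. The points of one pair of genes share their arrays and labelling reactions. For the 27 members with every value, the 55 pairs of mitosis genes had a median r of 0.31, and 92.7% of them were positive. Pairs of replication genes had a median of 0.26 and pairs of a replication and a mitosis gene 0.25. Over all 351 pairs the median was 0.21, and between members and all other genes it was 0.058. The genes most like Mki67 among the members were Mcm3 (r = 0.76), Tyms (0.75), Top2a (0.74), Rrm2 (0.74), Bub1 (0.72) and Ccnb1 (0.72), and Mcm5 with Mcm7 gave 0.88. The groups that hold the arrays whose marker levels went against their labels may hold such an effect. Over the other 10 groups the medians were 0.28 for mitosis pairs (89.1% positive), 0.15 for replication pairs, 0.18 for pairs across both roles and 0.15 over all 351 pairs, against 0.058 with all other genes.

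Further genes of the cycle were read as 4 lists in the Derlin-1 knockout without 4PBA, and 9 of 91 tested genes were called (9.89%, against 10.6% of all genes). Of 27 tested of 30 other replication genes none was called (5 at an unadjusted p under 0.05, median 0.02). Of 30 tested of 38 other mitosis genes 2 fell, Ccnf (-0.56, SE 0.11, adjusted p = 0.0077), which encodes cyclin F, and Cdc25b (-0.38, SE 0.11, adjusted p = 0.0352; 0.101 under quantile normalization), a phosphatase that activates Cdk1. Ccnf levels in the numbered series were 0.24 and 0.09 in vehicle controls and -0.14 and -0.26 in vehicle knockouts. Ccnf in the lettered series stood at 0.57 and 0.45 in untreated controls and -0.45 and -0.03 in untreated knockouts. Every Ccnf knockout value without 4PBA was below the controls of its series.

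Among 17 tested of 18 G1 regulators (median -0.02), Ccnd2, which encodes cyclin D2, and Myc rose and Mycn, a proliferation factor of granule neuron progenitors, fell. Ccnd2 levels in the numbered series were 0.98 and 1.43 in vehicle controls, 2.22 and 2.29 in vehicle knockouts and 2.42 and 2.91 in 4PBA knockouts. Ccnd2 in the lettered series stood at 1.71 and 0.76 in untreated controls, 2.40 and 2.42 in untreated knockouts and 2.14 and 0.89 in 4PBA knockouts. All 4 Ccnd2 knockout arrays without 4PBA lay above all their controls, and the array labelled lettered 4PBA knockout b lay within the controls' range. The differences were 1.11 for Ccnd2 (SE 0.25, adjusted p = 0.0143), 0.88 for Myc (SE 0.16, adjusted p = 0.0048) and -0.53 for Mycn (SE 0.12, adjusted p = 0.0176). Myc levels in the numbered series were -4.93 and -4.65 in vehicle controls and -4.29 and -3.77 in vehicle knockouts. Myc in the lettered series stood at -4.42 and -4.49 in untreated controls and -3.23 and -3.67 in untreated knockouts. The Myc groups did not overlap in either series.

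Among 17 tested of 18 cell cycle inhibitors and p53 targets, 13 were higher and 4 lower (median 0.15), and 4 were called, against 48.3% of all genes higher and 10.6% called. Cdkn1a, the inhibitor p21, rose by 1.05 (SE 0.16, adjusted p = 0.0028). Cdkn1a levels in the numbered series were 0.15 and 0.63 in vehicle controls, 0.96 and 1.15 in vehicle knockouts and 0.97 and 0.83 in 4PBA knockouts. Cdkn1a in the lettered series stood at 0.76 and 0.99 in untreated controls, 2.37 and 2.25 in untreated knockouts and 1.71 and 0.80 in 4PBA knockouts. The Cdkn1a knockout arrays without 4PBA were above every control of their series, the lettered pair by more. Pmaip1, which encodes the cell death protein Noxa, rose by 1.05 (SE 0.19, adjusted p = 0.0051) and Sesn2, a stress-induced sestrin, by 0.68 (SE 0.13, adjusted p = 0.0056). Pmaip1 levels in the numbered series were -3.37 and -3.47 in vehicle controls and -2.64 and -2.29 in vehicle knockouts. Pmaip1 in the lettered series stood at -3.88 and -3.46 in untreated controls and -2.56 and -2.50 in untreated knockouts. The Pmaip1 groups did not overlap in either series. Btg2, an antiproliferative gene, went down (-0.53, SE 0.12, adjusted p = 0.0157).

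With every array kept, none of the genes on these 4 lists was called in the other 7 comparisons of groups. In the Derlin-1 knockout with 4PBA the differences were 0.59 for Cdkn1a (adjusted p = 0.164), 0.85 for Ccnd2 (0.19) and -0.37 for Ccnf (0.194). Leaving out the array labelled lettered 4PBA knockout b gave 0.82 for Cdkn1a (SE 0.12, adjusted p = 0.0017), 1.16 for Ccnd2 (SE 0.22, adjusted p = 0.0069) and -0.43 for Ccnf (SE 0.12, adjusted p = 0.0574). Then 5 of the 91 genes were called, Cdkn1a, Ccnd2, Pmaip1 and Sesn2 higher and Cdc25b lower (5.49%, against 6.2% of all genes). Cdkn1a in Derlin-2 vehicle mice was at 0.18 and 0.07 in controls and 0.20 and 0.21 in knockouts. The Derlin-1 effect without 4PBA exceeded the Derlin-2 effect by 0.97 for Cdkn1a (adjusted p = 0.167) and 1.40 for Pmaip1 (adjusted p = 0.114), and neither difference passed.

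Markers of the cell types that could hold these RNAs were read in the same comparison, in which 10.6% of all genes were called. Atoh1, the defining gene of granule neuron progenitors, was above background on 0 of 24 arrays, while the other 7 of 8 progenitor markers were measured. Their summed level, in units of the array's 75th percentile, was 6.05 on both numbered vehicle controls and 5.34 to 5.63 in knockouts, and 4.63 to 5.47 in lettered untreated controls against 4.29 to 4.78 in knockouts. Of these 7 markers 1, Mycn, fell by the test, and it also stands among the G1 regulators. Of the 12 microglial markers 9 rose in the Derlin-1 knockout without 4PBA, with sums of 79.6 to 86.0 against 95.7 to 97.4 in the numbered series and 62.3 to 62.9 against 77.4 to 79.1 in the lettered series. Of 9 granule neuron markers 4 fell (Gabra6, Neurod1, Grin2c and Zic1), with sums of 396 to 412 against 301 to 305 and of 287 to 303 against 227 to 237. Of 8 oligodendrocyte precursor markers 1 rose, Olig2, by 0.40, with sums of 17.0 to 18.9 against 18.7 to 20.1 and of 17.3 to 21.6 against 15.5 to 21.9. Of 8 astrocyte markers 1 rose, Gfap, by 1.24, with sums of 102 to 120 against 120 to 122 and of 81.4 to 93.0 against 82.9 to 94.0. The markers' part in the differences of the cell cycle genes and regulators was not tested.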

How the data were processed

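RNA was measured on 24 single-colour (Cy3) arrays, read with Agilent Feature Extraction 10.7.1.1 per the submitters' processing notes. Per the file headers, the deposited processed intensity is background-subtracted by that software. The authors' deposited series table holds the same processed signal on a linear scale, without further scaling between arrays. After taking log2 of both, the largest difference was 1.74e-06 over 56305 probes with 1 spot. The file headers name mouse build mm9, and no coordinates were taken from them.

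Here, control and outlier spots were left out, no spot was saturated, spots of a probe were averaged, and each array's 75th percentile was subtracted. Probes were named by matching their transcript accession to RefSeq (32994 of 56605 probes, 22911 symbols). A probe was kept if well above background on both arrays of at least 1 group (38115 probes, 24784 with a symbol), and the brightest kept probe stood for its gene (16935 genes). limma 3.58.1 (R 4.3.3) fitted a mean for each of 12 groups of 2 arrays (12 residual and 2.14 prior degrees of freedom), with two-sided contrasts and Benjamini-Hochberg adjustment over all genes. Calls are at an adjusted p under 0.05. Derlin-1 effects are means of both series. The number of arrays limits the precision: the median SE was 0.11 for Derlin-1 and 0.155 for Derlin-2 effects. The script was tested on simulated data with known changes.

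Values on every array are given for members called in a comparison, the 8 with the smallest unadjusted p in the Derlin-1 knockout without 4PBA, and Mki67, Top2a, Mcm2, Pcna, Ccnd1 and Cdk1. Members, lists and markers were chosen with earlier results of these data known. Alternatives covered background correction, scaling, filters, probe choice, the variance model, array weights, single slides, a replicate block, the authors' table and each array left out. The normexp alternative used the median spot signal, because the mean signal was not among the columns used. Controls occupied the first and knockouts the last columns of each slide, and arrays with 4PBA the second row, so position and group cannot be told apart.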

Additional observations from a re-analysis of the deposited data

How the results depend on the processing

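The counts of called members were small and moved with the settings. In the Derlin-1 knockout without 4PBA the count of 1 (Mcm10) became 0 under quantile normalization, median centring, no filter on dim probes, the filter to probes above background on all 24 arrays (which Mcm10 did not pass), the mean over probes, every probe tested, array weights, the lettered slide fitted alone, the numbered series only and the replicate block. It became 2 (Mcm10 and Ccne1) under normexp and under the trend and robust variance model, and without single arrays it ran from 0 to 3. For the numbered slide fitted alone the 1 call was Gins1, and for the lettered series only it was Mcm2. Where every probe was tested, only each member's brightest probe was counted, so the second Cdc45 probe, which passed there, is left out. With the replicate block Mcm10 kept its difference of 0.87 at an adjusted p of 0.0649. Deviations of same-numbered replicates correlated at -0.153 to 0.361 on the numbered slide (2 of 6 pairs of groups above 0.1), -0.0446 to 0.40 on the lettered slide (5 of 6) and -0.0453 to 0.0999 on the Derlin-2 slide (0 of 6). Since not every pair was above 0.1 on any slide, they were treated as sharing only a number, though a partial pairing on the lettered slide is possible. Over the settings other than left-out arrays, Mcm10 ran from 0.52 to 1.08, with adjusted p from 0.0200 to 0.485. In the Derlin-2 vehicle comparison the count of 1 (Cdc6) became 0 under normexp, the trend and robust model and the Derlin-2 slide alone, and ran from 0 to 1 without single arrays. Cdc6 kept its direction throughout, from -1.33 to -0.64. For 4PBA in Derlin-2 controls 0 became 1 (Cdc6) under quantile normalization, no filter and array weights. For the difference between Derlin-1 and Derlin-2 effects 0 became 1 (Cdc6) under array weights, the replicate block and without both arrays whose marker levels went against their labels, an alternative chosen after seeing the data. Without single arrays the Derlin-1 comparison with 4PBA (Mcm10), 4PBA in Derlin-2 knockouts (Ccnb2) and that difference each ran from 0 to 1. Directions reversed in the numbered series, alone or only, for Mcm2 (0.046), Mki67 (0.49), Top2a (0.91) and Ccnd1 (0.13). They reversed in the lettered series for Mcm3 (-0.085) and Mcm6 (-0.056). Without single arrays Mki67 ran from -0.28 to 0.070, Top2a from -0.74 to 0.057 and Ccnd1 from -0.18 to 0.10. Over all genes, the Derlin-1 count without 4PBA ran from 649 to 2765 without single arrays and from 0 to 2183 under the other settings (1793 in the text). The other 7 comparisons ran from 0 to 1838 under those settings, and from 3 to 1050 without single arrays. Except where the alternative itself drops arrays or genes, the cause was not tested. Genes above background on few arrays (Aurkb, Kif11, Cdk1, Ccne2, Ttk) are limited by signal.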
